A study of Homo sapiens with 5 samples.

Results

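Fatty acid desaturases and elongases shape the acyl chains of cell lipids, and their transcripts were examined in irradiated LNCaP cells, a widely used human prostate cancer line that responds to androgens, with and without a hairpin against RB1. The 10 genes are FADS1, FADS2, FADS3, SCD, SCD5, ELOVL1, ELOVL2, ELOVL5, ELOVL6 and ELOVL7, and all 10 were measured among the 14812 genes tested. They were chosen by name, with earlier results of these data in view, and the probe set of each gene was selected on its mean log2 intensity over all 5 arrays, whichever group the arrays belonged to. The shRB group (3 arrays) carried a retroviral hairpin against RB1 and the shControl group (2 arrays) a scrambled retroviral hairpin, both under puromycin selection. Both groups had been given 10 Gy of ionizing radiation 24 h before RNA isolation, so every comparison here is between irradiated populations of the same line. The labels name no second hairpin against RB1 and do not tell whether replicate arrays were separate cultures, so p-values here measure the spread between arrays alone, part or all of which may be technical.

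Desaturases insert double bonds into acyl-CoA chains with electrons passed from NADH through cytochrome b5 reductase and cytochrome b5. Elongases carry out the first, condensing step of the cycle that lengthens a chain with carbons from malonyl-CoA. FADS1 and FADS2 turn the essential fatty acids linoleic and alpha-linolenic acid into arachidonic acid, eicosapentaenoic acid and their longer products, whereas SCD and SCD5 make the monounsaturated oleic and palmitoleic acids. Prostate cancer cells are known for active fatty acid synthesis, which androgens and the sterol regulatory element binding proteins increase.

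The 3 FADS genes lie side by side on chromosome 11. FADS1 and FADS2 are transcribed on opposite strands, and in the RefSeq models both start sites of FADS2 in the promoter table lie inside the transcribed 5′ end of FADS1, 599 and 800 bases from the FADS1 start. Whether the probes of the overlapping stretch separate the strands is not given in the sources used here. Promoter windows of 300 bases (250 before to 50 after a start) were taken from RefSeq, build GRCh38.p14, for the FADS genes and for SCD5, the genes with the 4 largest differences between the groups, and for SCD, the other stearoyl-CoA desaturase. FADS1 is shown at chr11:61816954-61817253 (minus strand), FADS2 at chr11:61816154-61816453 (plus strand, the start nearer to FADS1), FADS3 at chr11:61891496-61891795 (minus strand), SCD5 at chr4:82798747-82799046 (minus strand) and SCD at chr10:100346983-100347282 (plus strand). Capitals mark matches, on either strand, to GGGCGG (the GC box, bound by SP factors) and CCAAT (the CCAAT box, bound by nuclear factor Y).
FADS1: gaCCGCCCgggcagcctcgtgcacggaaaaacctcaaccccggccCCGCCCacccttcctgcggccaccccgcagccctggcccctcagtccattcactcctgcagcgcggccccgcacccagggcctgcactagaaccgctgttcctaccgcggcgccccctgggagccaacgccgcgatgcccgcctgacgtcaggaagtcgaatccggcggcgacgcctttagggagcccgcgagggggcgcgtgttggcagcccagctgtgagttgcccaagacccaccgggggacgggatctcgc
FADS2: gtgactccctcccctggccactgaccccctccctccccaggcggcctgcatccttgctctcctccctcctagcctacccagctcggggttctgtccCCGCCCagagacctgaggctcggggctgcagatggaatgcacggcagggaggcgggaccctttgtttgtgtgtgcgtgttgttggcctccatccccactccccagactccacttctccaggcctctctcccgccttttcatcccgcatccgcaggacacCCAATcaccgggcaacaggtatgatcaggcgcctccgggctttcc
FADS3: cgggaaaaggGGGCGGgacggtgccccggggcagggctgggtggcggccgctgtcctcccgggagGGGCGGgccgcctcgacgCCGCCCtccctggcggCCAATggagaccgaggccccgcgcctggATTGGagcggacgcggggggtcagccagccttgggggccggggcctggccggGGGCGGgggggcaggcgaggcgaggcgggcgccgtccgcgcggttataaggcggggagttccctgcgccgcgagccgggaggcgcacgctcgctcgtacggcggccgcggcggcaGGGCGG
SCD5: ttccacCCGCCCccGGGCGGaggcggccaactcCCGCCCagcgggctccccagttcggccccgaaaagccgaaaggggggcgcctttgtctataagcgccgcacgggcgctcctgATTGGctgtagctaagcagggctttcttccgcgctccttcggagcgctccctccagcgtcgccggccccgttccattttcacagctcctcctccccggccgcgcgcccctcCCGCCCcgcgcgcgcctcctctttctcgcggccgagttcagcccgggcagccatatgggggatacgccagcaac
SCD: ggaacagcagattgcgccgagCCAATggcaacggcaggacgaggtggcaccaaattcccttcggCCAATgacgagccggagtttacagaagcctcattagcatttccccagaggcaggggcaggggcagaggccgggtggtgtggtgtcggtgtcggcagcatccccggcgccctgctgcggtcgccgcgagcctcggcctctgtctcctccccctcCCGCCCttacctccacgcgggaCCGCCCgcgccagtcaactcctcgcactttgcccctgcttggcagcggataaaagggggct

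All 10 genes had a promoter window, FADS2 with 2, of which the one not shown held none of the letters below. Counts are of genes with a match in any window, whereas the shares beside them are of single windows. GGGCGG stood in the windows of 9 of the 10 genes (ELOVL5 is the exception), against 45.0% of all 35116 windows and 58.2% of the 14869 windows of tested genes. CCAAT stood in those of 6 genes, FADS2, FADS3, SCD, SCD5, ELOVL1 and ELOVL5, against 34.6% of all windows and 34.3% of those of tested genes. The 6-letter E-box CACGTG stood in 1, that of ELOVL5, against 7.26% of all windows and 8.55% of those of tested genes. No window of the 10 genes held TTTNGCGC, an E2F site (1.79% of all windows, 2.19% of those of tested genes). None held TCACNCCAC, the letters of a sterol regulatory element (1.13% and 1.1%). The windows of SCD5 and FADS3 both held matches to GGGCGG and to CCAAT, at different positions. These letters describe the windows and are no evidence of a factor bound there.

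RB1, the target of the hairpin, had log2 intensities of 5.16, 5.28 and 5.20 in shRB replicates 1 to 3 and of 5.81 and 5.70 in shControl replicates 1 and 2. Every shRB array was below both shControl arrays, at 0.55 of the shControl level once an apparent constant of 16 was taken off the deposited linear intensities, and the difference missed the threshold over all genes (limma, Benjamini-Hochberg adjusted p = 0.0967). The prostate gene KLK3, which encodes prostate-specific antigen, was bright in both groups, at 10.08 ± 0.01 in shRB (SD, n = 3) and 10.13 ± 0.06 in shControl (SD, n = 2) on the log2 scale. Of 11 listed LNCaP markers 8 were measured and none passed. Without overlap of arrays, 3 of the 8 were lower in shRB and 0 higher, against 15.4% and 20.6% of all genes. These 3 were KLK4, KRT18 and HOXB13, with log2 differences of -0.35, -0.29 and -0.17. The 3 measured stromal markers were dim, with summed linear intensities of 70.3 to 73.6 in shRB and 66.2 to 73.2 in shControl. The 4 measured blood and endothelial markers summed to 229 to 242 in shRB and 196 to 275 in shControl. None of these 4 passed, but they moved apart: without overlap of arrays VWF was lower in shRB, at 5.61 ± 0.43 in shRB (SD, n = 3) and 6.26 ± 0.21 in shControl (SD, n = 2) on the log2 scale (limma, adjusted p = 0.164), and LYZ and CD14 were higher, with log2 differences of 0.32 and 0.28 (adjusted p = 0.334 and 0.348). The part of these markers in the results was not tested. Array medians lay between 26.6 and 28.1, against the floor of 16. The 2 shControl arrays correlated at r = 0.966 across genes, lower than any pair of shRB arrays (0.983 to 0.986). Pairs across the groups correlated at 0.955 to 0.97, so the shControl arrays were no closer to each other than to some shRB arrays.

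The comparison of shRB with shControl asks which of these transcripts differ when RB1 is depleted in irradiated cells. Of the 10 genes, 2 passed the test over all genes: FADS1 was higher and SCD5 lower in shRB. In bulk RNA a smaller share of expressing cells and less RNA per cell cannot be told apart. Among all 14812 genes 1.07% passed, 0.695% as higher and 0.378% as lower. Arrays of the groups did not overlap for 6 of the 10, with 5 higher in shRB (FADS1, FADS2, FADS3, ELOVL6 and ELOVL7) and 1 lower (SCD5). Of all genes, 20.6% were higher and 15.4% lower without overlap. The median log2 difference was 0.21 over the 10 genes and 0.02 over all genes. Since the genes were listed with this comparison in view, these counts describe the list and support nothing about it.

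**Figure D1:**
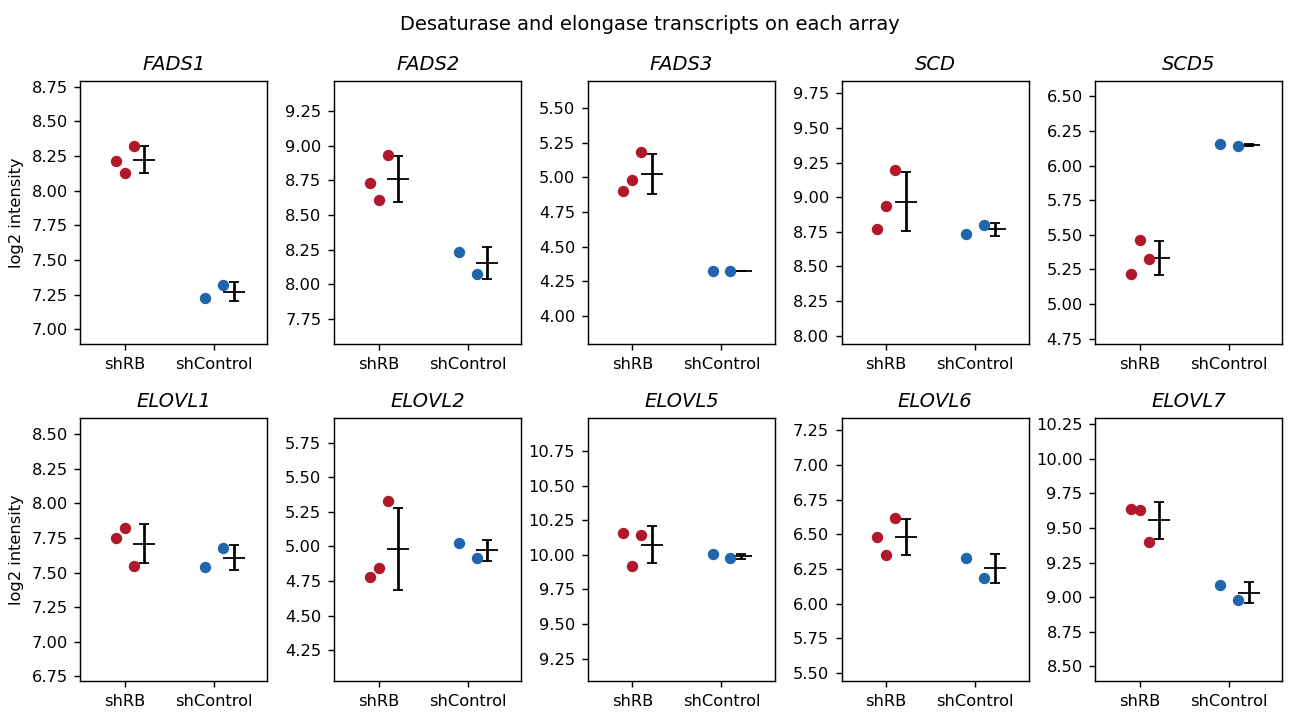
Log2 intensity of the 10 genes on each array, shRB (3 points, red) and shControl (2 points, blue), with the group mean and SD as a bar beside the points; each panel spans the same log2 range. FADS1, FADS2, FADS3 and ELOVL7 have every shRB array above both shControl arrays by more than 0.3, ELOVL6 by 0.02, and SCD5 has every shRB array below.

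FADS1, the desaturase that forms arachidonic and eicosapentaenoic acid, had log2 intensities of 8.22, 8.13 and 8.32 on the shRB arrays and of 7.22 and 7.32 on the shControl arrays. The groups were separated by 0.81 between the lowest shRB and the highest shControl array, several times the spread within either group. Group means were 8.22 ± 0.10 in shRB (SD, n = 3) and 7.27 ± 0.07 in shControl (SD, n = 2). The log2 difference of 0.95 (SE 0.15, 95% interval 0.63 to 1.27) is 1.93-fold higher as deposited and 2.04-fold with the constant of 16 taken off. Its adjusted p was 0.0139 (limma), and 39 of the tested genes had a larger positive difference. Without shRB replicate 1, 2 or 3 the difference was 0.95, 1.00 and 0.90 with adjusted p-values of 0.111, 0.0841 and 0.135. With the constant removed before the fit the difference was 1.01 (limma, adjusted p = 0.123), so the call, though not the size, depends on these choices. Calls also fell over all genes, from 159 as reported to 28, 22 and 22 without shRB replicate 1, 2 or 3. With the constant removed 13 genes passed.

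FADS2, the desaturase of the first step of polyunsaturated fatty acid synthesis, had 8.73, 8.61 and 8.94 in shRB and 8.23 and 8.07 in shControl on the log2 scale. All shRB arrays were above both shControl arrays, by at least 0.38. Group means were 8.76 ± 0.16 in shRB (SD, n = 3) and 8.15 ± 0.11 in shControl (SD, n = 2), a log2 difference of 0.61 (SE 0.16, 95% interval 0.26 to 0.95), 1.52-fold as deposited. It missed the threshold over all genes (limma, adjusted p = 0.0945). In a fit restricted to genes at or above the median intensity the same difference passed (adjusted p = 0.0458), as it did with an intensity trend and robust variances (adjusted p = 0.0107).

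FADS3, a desaturase known to act on sphingoid bases, lay near the floor. Its log2 intensities were 4.90, 4.98 and 5.19 in shRB and 4.33 and 4.33 in shControl, against a floor of 4. In shRB 60.6% of all probe sets were dimmer and in shControl 20.9%, so the shControl level is not shown to lie above background. Group means were 5.02 ± 0.14 in shRB (SD, n = 3) and 4.33 ± 0.00039 in shControl (SD, n = 2), a log2 difference of 0.70 (SE 0.15, 95% interval 0.36 to 1.03) that missed the threshold (limma, adjusted p = 0.0563). The deposited ratio of 1.62 became 4.09 with the constant of 16 taken off, so its size depends on the constant. After subtraction of array medians the adjusted p was 0.048 and with an intensity trend and robust variances it was 0.0397.

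The 3 neighbouring FADS genes thus had positive differences of 0.61 to 0.95 with no overlap of arrays, and the measured genes next to the cluster did not pass. FEN1, the flap endonuclease on the FADS1 side, had a log2 intensity of 8.43 ± 0.13 in shRB (SD, n = 3) and 8.58 ± 0.0027 in shControl (SD, n = 2), a difference of -0.15 with every shRB array below both shControl arrays (limma, adjusted p = 0.639). RAB3IL1, a guanine nucleotide exchange factor on the FADS3 side, had 4.72 ± 0.17 in shRB (SD, n = 3) and 4.44 ± 0.19 in shControl (SD, n = 2), a difference of 0.28 with overlapping arrays (limma, adjusted p = 0.399). Both RAB3IL1 means lay near the floor of 4. Further genes of the region were taken by position after the FADS values had been seen, so that 4 measured genes stood on each side. Of these 8 flanking genes 7 did not pass. The farthest on the FADS3 side, ASRGL1, an asparaginase, fell by 1.03 on the log2 scale (limma, adjusted p = 0.0189), with 4.98 ± 0.17 in shRB (SD, n = 3) and 6.01 ± 0.26 in shControl (SD, n = 2). That call rests on 1 probe set and on all 3 shRB arrays. With the mean of the gene's probe sets the difference was -0.058 (limma, adjusted p = 0.872), so its probe sets did not fall alike. Without shRB replicate 1, 2 or 3 the adjusted p was 0.111, 0.113 and 0.173, and with the constant removed it was 0.115, all by limma. TMEM258, a subunit of the oligosaccharyltransferase complex, had every shRB array above both shControl arrays at a difference of 0.36 (limma, adjusted p = 0.286).

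**Figure D2:**
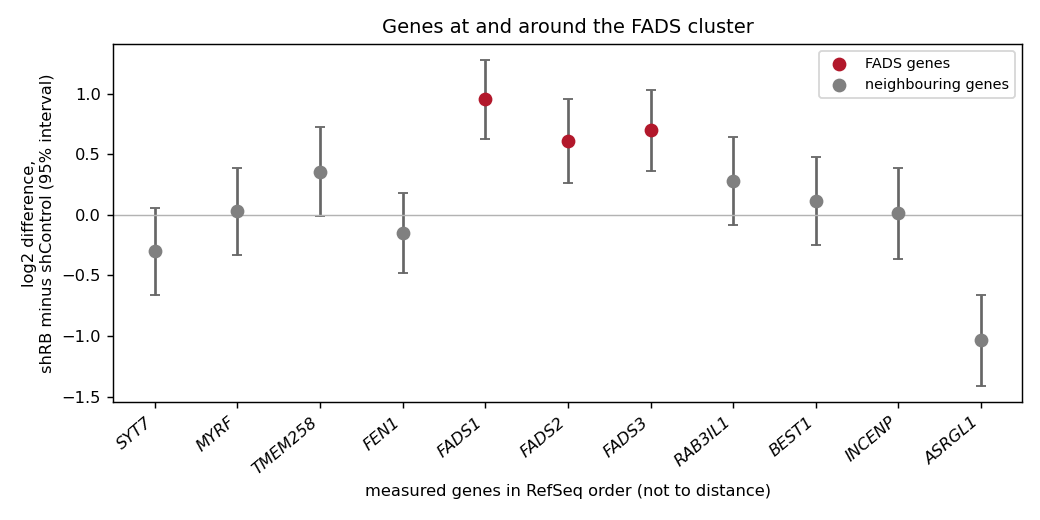
Log2 difference, shRB minus shControl, with its 95% interval from limma, for FADS1, FADS2 and FADS3 (red) and 4 measured genes on either side (grey) in RefSeq order on chromosome 11, not to distance. The intervals of the FADS genes lie above 0, those of 7 flanking genes reach across 0, and that of ASRGL1, at -1.03, lies below.

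The stearoyl-CoA desaturases had differences of opposite sign. SCD5, the second human stearoyl-CoA desaturase, best known from brain and pancreas, had log2 intensities of 5.22, 5.46 and 5.32 in shRB and of 6.15 and 6.14 in shControl. Each shRB array was at least 0.68 below the shControl arrays. It fell by 0.81 on the log2 scale (SE 0.15, limma adjusted p = 0.031), with 5.33 ± 0.12 in shRB (SD, n = 3) and 6.15 ± 0.01 in shControl (SD, n = 2). On the deposited scale it was 1.76-fold lower, and 2.25-fold lower with the constant of 16 taken off. In shRB 68.9% of all probe sets were dimmer than SCD5 and in shControl 81.8%, and 52 of the tested genes had a larger negative difference. Without shRB replicate 1, 2 or 3 the difference was -0.75, -0.88 and -0.81 with adjusted p-values of 0.179, 0.121 and 0.197, with array weights the adjusted p was 0.0555, and with the constant removed before the fit it was 0.123 at -1.06.

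SCD, the main stearoyl-CoA desaturase and a known target of sterol regulatory element binding proteins, was bright, with 8.77, 8.93 and 9.20 in shRB and 8.74 and 8.80 in shControl. The lowest shRB array lay between the shControl arrays, so the groups overlapped. The difference was 0.20 (95% interval -0.16 to 0.56, limma adjusted p = 0.559). A second probe set carrying the same symbol had 8.27 ± 0.06 in shRB (SD, n = 3) and 8.18 ± 0.24 in shControl (SD, n = 2), a difference of 0.08. Whether that probe set reads SCD or a near-identical pseudogene copy is not settled here, so its value is uncertain as a measure of SCD.

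Among the elongases, ELOVL7 had the largest difference. ELOVL7, which lengthens saturated long chains and has been studied in prostate cancer, had log2 intensities of 9.63, 9.63 and 9.40 in shRB and of 9.08 and 8.98 in shControl. All shRB arrays were at least 0.32 above the shControl arrays. Group means were 9.56 ± 0.13 in shRB (SD, n = 3) and 9.03 ± 0.07 in shControl (SD, n = 2), a log2 difference of 0.52 (SE 0.15, 95% interval 0.19 to 0.86), 1.44-fold as deposited. This missed the threshold (limma, adjusted p = 0.112), except with an intensity trend and robust variances (adjusted p = 0.0132). In shRB ELOVL7 was brighter than 99.0% of all probe sets, and in shControl than 98.1%.

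ELOVL6, which lengthens palmitate to stearate, had 6.48, 6.35 and 6.61 in shRB and 6.33 and 6.18 in shControl. The groups were apart by only 0.02, less than the spread within either, and the difference of 0.23 (95% interval -0.11 to 0.56) did not pass (limma, adjusted p = 0.469). ELOVL5, which lengthens polyunsaturated chains between the FADS2 and FADS1 steps, had 10.15, 9.92 and 10.15 in shRB and 10.00 and 9.97 in shControl. Its shRB replicate 2 was below both shControl arrays and replicates 1 and 3 above both, and the difference was 0.08 (95% interval -0.25 to 0.41, limma adjusted p = 0.806).

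ELOVL1, which makes very long saturated and monounsaturated chains, had 7.75, 7.82 and 7.55 in shRB and 7.54 and 7.67 in shControl, with overlapping arrays. Its difference was 0.10 (95% interval -0.24 to 0.43, limma adjusted p = 0.774). ELOVL2, which lengthens polyunsaturated chains towards docosahexaenoic acid, had 4.78, 4.84 and 5.32 in shRB and 5.03 and 4.92 in shControl. Here shRB replicate 3 was above both shControl arrays and the other 2 below both. The sign of the difference of 0.01 (95% interval -0.39 to 0.41, limma adjusted p = 0.983) turned under 7 of 13 other settings. Among these 7, the replicate number as a block and leaving out shRB replicate 3 gave the same estimate. The 2 remaining elongases with a probe set, ELOVL3 and ELOVL4, were dim: ELOVL3 had 4.53 ± 0.09 in shRB (SD, n = 3) and 4.58 ± 0.17 in shControl (SD, n = 2), and ELOVL4 had 4.65 ± 0.09 in shRB and 4.43 ± 0.56 in shControl. They were the measured 2 of 7 further desaturases and elongases listed.

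**Figure D3:**
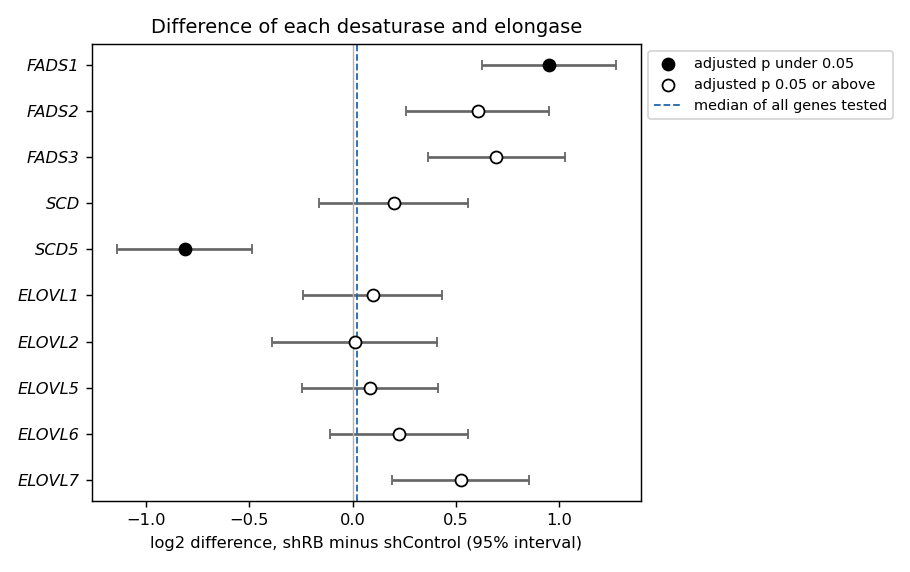
Log2 difference, shRB minus shControl, with its 95% interval from limma, for the 10 genes; filled points passed an adjusted p of 0.05 over all genes and the dashed line is the median difference of all genes tested, 0.02. FADS1 (0.95) and SCD5 (-0.81) are filled, the intervals of FADS2, FADS3 and ELOVL7 lie above 0, and those of SCD, ELOVL1, ELOVL2, ELOVL5 and ELOVL6 include 0.

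By family, the 3 FADS genes had differences of 0.61 to 0.95, the 5 elongases 0.01 to 0.52, and the 2 stearoyl-CoA desaturases -0.81 and 0.20. Within shRB, replicate 3 was the highest of the 3 arrays for 6 of the 10 genes, among them FADS1, FADS2, FADS3 and SCD. The nearest measured gene on each side of each of the 10 genes, 16 genes outside the list in all, had differences of -0.18 to 0.36 and none passed (limma, adjusted p from 0.261 to 0.998). For SCD5 these were MIR575, a microRNA gene inside it (0.06), and LINC00575 (-0.02), and for ELOVL7 they were SMIM15 (-0.09) and DEPDC1B (-0.02). PKD2L1 (-0.16) and SEC31B (0.14) flank SCD, CDC20 (0.31) and MED8 (0.36) flank ELOVL1, EGF (0.28) and ENPEP (-0.18) flank ELOVL6, and GCM1 (0.0019) and KLHL31 (-0.11) flank ELOVL5. ELOVL2-AS1, which overlaps ELOVL2, differed by -0.16 and SYCP2L, on the other side, by 0.02. Several of these flanking genes were dim, among them MIR575, LINC00575, EGF, ENPEP and GCM1, so their missing calls do not show equal levels.

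The wider lipid pathway was read from 9 lists holding 102 measured genes of 193 listed. Of the 102 genes 1 passed over all genes, a share near the 1.07% of all genes that passed, and the median difference was -0.0078. That gene was PTGES, the synthase that makes prostaglandin E from the cyclooxygenase product of arachidonic acid. PTGES had log2 intensities of 5.06, 5.21 and 5.32 in shRB and 6.75 and 6.22 in shControl, and fell by 1.29 (SE 0.18, limma adjusted p = 0.00857). All shRB arrays were below both shControl arrays, with means of 5.19 ± 0.13 in shRB (SD, n = 3) and 6.48 ± 0.37 in shControl (SD, n = 2). Without shRB replicate 1, 2 or 3 its adjusted p was 0.0963, 0.0744 and 0.0979, and with the constant removed 0.104.

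The other 16 measured of 30 listed genes of eicosanoid formation did not pass, and the list split into 8 positive and 9 negative differences (median -0.0023). PTGS2, the inducible cyclooxygenase that acts before PTGES, had 4.78 ± 0.18 in shRB (SD, n = 3) and 5.54 ± 0.43 in shControl (SD, n = 2), a difference of -0.76 (limma, adjusted p = 0.0935). The deposited PTGS2 ratio of 0.59 became 0.37 with the constant of 16 taken off, so its size depends on the constant. The lipoxygenase ALOX12 stood at 0.55 (adjusted p = 0.0975), the leukotriene synthase LTC4S at 0.58 (adjusted p = 0.146) and ALOX15 at -0.45 (adjusted p = 0.205), all by limma. ALOX12 averaged 4.12 in shControl, near the floor of 4, so the size of its difference depends on the constant.

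In the list of electron donors and partner enzymes, 10 of 14 were measured, 8 with positive and 2 with negative differences (median 0.09), and none passed. HACD4, a dehydratase of the elongation cycle, had 6.43 ± 0.14 in shRB (SD, n = 3) and 5.76 ± 0.13 in shControl (SD, n = 2), a difference of 0.67 with no overlap (limma, adjusted p = 0.0694). The reductase HSD17B12, which acts on the product of every elongase, stood at 0.07 (adjusted p = 0.831), and the electron donor CYB5A at 0.07 (adjusted p = 0.85). The cytochrome b5 reductase genes CYB5R2 (0.34), CYB5R3 (0.22) and CYB5R1 (0.28) had adjusted p-values from 0.262 to 0.48 (limma).

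The 8 measured of 13 listed fatty acid synthesis genes split into 3 positive and 5 negative differences (median -0.20), and none passed. FASN, fatty acid synthase, had log2 intensities of 7.34, 7.39 and 7.23 in shRB and 7.71 and 7.73 in shControl. Its arrays did not overlap, and the difference was -0.40 (SE 0.15, limma adjusted p = 0.184), opposite in sign to those of the FADS genes. ACACB stood at -0.41 (adjusted p = 0.281), ACACA, the cytosolic acetyl-CoA carboxylase, at -0.23 (adjusted p = 0.502) and ACLY, which supplies acetyl-CoA, at -0.16 (adjusted p = 0.675). The mitochondrial reductase MECR stood at 0.29 (adjusted p = 0.403) and HSD17B8 at -0.34 (adjusted p = 0.409).

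Regulators of fatty acid synthesis were measured for 15 of 29 listed, with 8 positive and 7 negative differences (median 0.15) and none past the threshold. SREBF1, whose protein drives transcription of SCD and FADS genes, had 6.83 ± 0.28 in shRB (SD, n = 3) and 6.57 ± 0.01 in shControl (SD, n = 2), a difference of 0.26 (limma, adjusted p = 0.475). SREBF2 stood at 0.25 (adjusted p = 0.411), INSIG1, which retains these factors in the endoplasmic reticulum and is itself their target, at 0.31 (adjusted p = 0.471) and INSIG2 at -0.30 (adjusted p = 0.358). The lipogenic factor THRSP stood at 0.43 (adjusted p = 0.229) and PPARA, a fatty acid sensor, at 0.31 (adjusted p = 0.308).

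No gene passed in the remaining 4 functional lists. For phospholipid and triglyceride acylation 21 of 31 were measured, 10 positive and 11 negative (median -0.02). DGAT1, which completes triglyceride synthesis, had 7.23 ± 0.07 in shRB (SD, n = 3) and 6.58 ± 0.26 in shControl (SD, n = 2), a difference of 0.65 (limma, adjusted p = 0.0829), while the lipid droplet protein PLIN3 stood at -0.66 (adjusted p = 0.11), MOGAT1 at -0.53 (adjusted p = 0.136) and GPAT3, near the floor in shControl at 4.12, at 0.42 (adjusted p = 0.178). For acyl-CoA synthetases and uptake 13 of 27 were measured, 5 positive and 8 negative (median -0.15), with ACSBG2, near the floor in shControl at 4.28, at 0.48 (adjusted p = 0.16), ACSF2 at -0.30 (adjusted p = 0.309) and ACSL5 at -0.27 (adjusted p = 0.356). ACSL4, which prefers arachidonic acid, had 4.45 ± 0.20 in shRB (SD, n = 3) and 5.09 ± 0.77 in shControl (SD, n = 2), a difference of -0.64 with overlapping arrays (limma, adjusted p = 0.233).

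Mitochondrial beta-oxidation had 8 of 24 measured, 2 positive and 6 negative (median -0.06). HADH, a dehydrogenase of that cycle, had 7.86 ± 0.17 in shRB (SD, n = 3) and 7.18 ± 0.38 in shControl (SD, n = 2), a difference of 0.68 (limma, adjusted p = 0.102), with ECI1 at 0.23, ETFDH at -0.26 and ACAA2 at -0.21. Peroxisomal beta-oxidation, which trims the last polyunsaturated intermediate to docosahexaenoic acid, had 8 of 18 measured, 3 positive and 5 negative (median -0.06). HSD17B4, its bifunctional enzyme, had 9.57 ± 0.19 in shRB (SD, n = 3) and 10.10 ± 0.0024 in shControl (SD, n = 2), a difference of -0.53 (limma, adjusted p = 0.122), with ACOT8 at 0.36, ACAA1 at -0.31 and ACOT4, near the floor in both groups (4.33 in shRB, 4.08 in shControl), at 0.25.

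**Figure D4:**
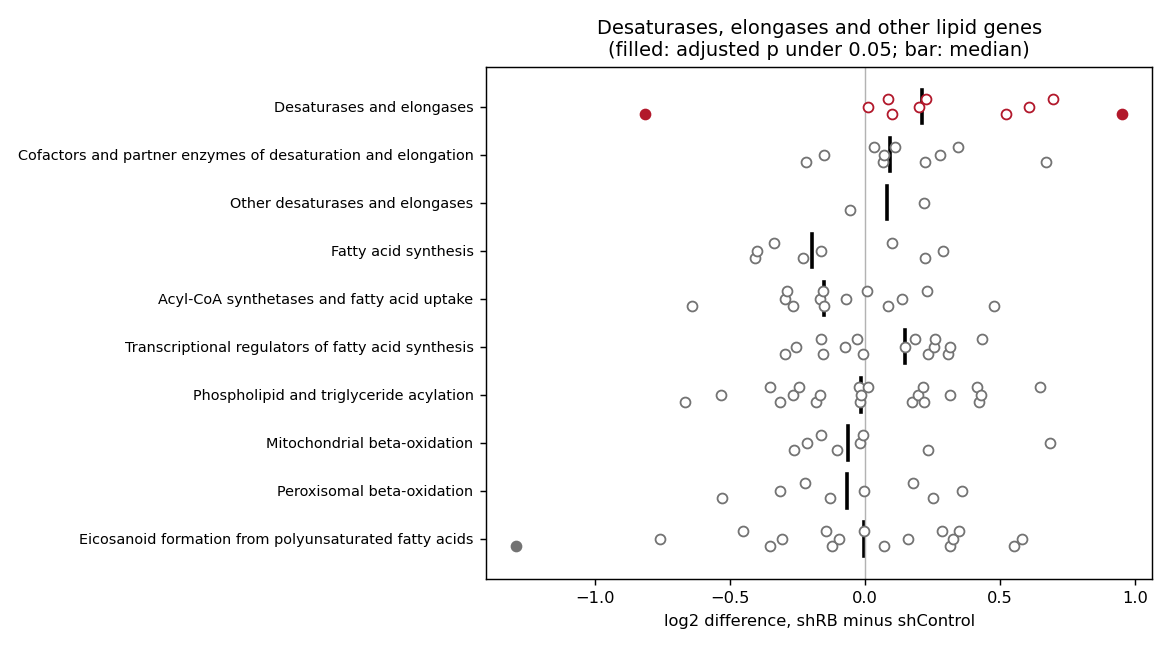
Log2 difference, shRB minus shControl, of each of the 10 desaturases and elongases (red, top) and of the measured genes of 9 further lipid lists (grey); filled points passed an adjusted p of 0.05 over all genes and black bars are medians. The filled points are FADS1 and SCD5 in the top line and PTGES, at -1.29, in the eicosanoid line.

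The 5 largest differences held their sign under every alternative run. In several runs the sign could not change. Leaving out dim genes, or using an intensity trend and robust variances, keeps the difference of any gene still tested. Other probe set rules change nothing for these genes, which have 1 probe set each. FADS1 ranged from 0.90 to 1.01 over 14 settings and passed in 7 of the 9 that kept all 5 arrays. SCD5 ranged from -1.06 to -0.75 over 14 settings and passed in 6 of these 9. FADS2 ranged from 0.52 to 0.69 and passed in 2 of the 9. FADS3 ranged from 0.62 to 1.34 over 13 settings, the highest with the constant removed, and passed in 2 of the 8 that kept all 5 arrays. ELOVL7 ranged from 0.47 to 0.60 over 14 settings and passed in 1 of the 9. The 5 fits that left out 1 array gave calls for FADS1 and SCD5 without either shControl array and for none of the 10 genes without any 1 shRB array. With 1 shControl array left out, the spread comes from the 3 shRB arrays alone and the lone shControl array is assumed to vary like them, although the shControl pair correlated less well, so those calls say nothing about stability.

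**Figure D5:**
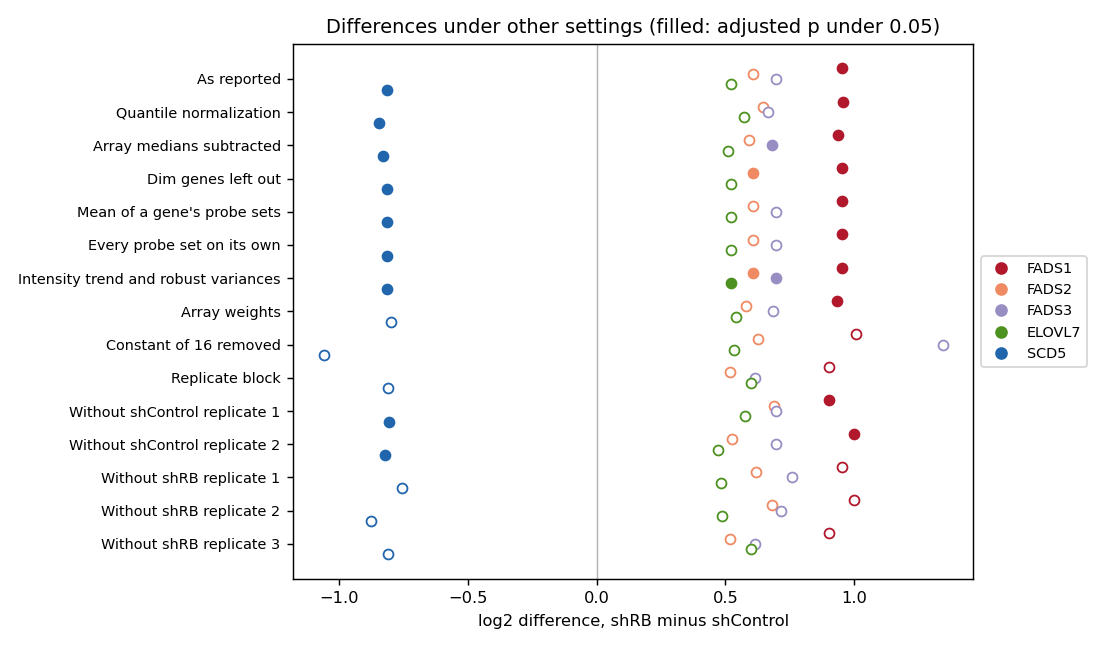
Log2 difference, shRB minus shControl, of FADS1, FADS2, FADS3, ELOVL7 and SCD5 as reported (top row) and under each other setting; filled points passed an adjusted p of 0.05 over all genes tested. All points keep their side of 0, and none is filled with the constant of 16 removed, with the replicate block or without any 1 shRB array.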

How the data were processed

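Per the labels' protocols, biotin-labelled cDNA from total RNA was hybridised to single-colour arrays. The authors deposited 1 intensity per probe set and array on a linear scale. How they were summarised and normalized, with which software and on which build, is not given in the sources used here. The lowest deposited intensities were just above 16, as would follow from an added constant, which compresses differences of dim genes.

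Of 44607 probe sets, 15835 had 1 gene symbol, 0 had several and 28772 were unnamed here. All named ones matched the RefSeq gene table (GRCh38.p14) by Entrez identifier. The brightest probe set per gene by mean log2 intensity was kept, without filtering, leaving 14812 genes. For log2 intensities, limma 3.58.1 under R 4.3.3 (lmFit and eBayes without covariates) gave two-sided p-values, adjusted by Benjamini-Hochberg across all genes, with a threshold of 0.05, and the procedure was tested on simulated data. Figures used matplotlib 3.10.9. Differences are shRB minus shControl. Precision is limited by the number of arrays.

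The genes, lists and tests were chosen with earlier results of these data known. Named genes are the 10 members, RB1, KLK3, nearest measured flanking genes, and in each list those that passed, up to 4 with the smallest p, and FASN, ACACA, ACLY, SREBF1, INSIG1, HSD17B12 and CYB5A. TECR was not analysed here. Alternatives were other normalizations, filters, probe set rules, variance models, array weights, removal of the constant (16 subtracted, 4 added before the logarithm), the replicate number as a block and leaving out each array.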

Additional observations from a re-analysis of the deposited data

How the results depend on the processing

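Over the 14 other fits, 115 of 138 values of single desaturases and elongases kept their direction and their side of the threshold, 11 lost the call, 5 gained it and 7 changed sign. All 7 were ELOVL2, at -0.0015 after quantile normalization, -0.0043 after subtraction of array medians, -0.025 with array weights, -0.0015 with the constant removed, -0.16 with the replicate block, -0.043 without shControl replicate 2 and -0.16 without shRB replicate 3. The other 3 fits that left out 1 array kept it positive, at up to 0.11. No direction could change in fits that altered only the genes tested or the variance model. Nor could it change under other probe set rules for a gene with 1 probe set. With the replicate number as a block, 24 genes passed (8 higher, 16 lower), 0 of the 10 desaturases and elongases and 0 pathway genes. Only shRB has a replicate 3, so this fit gave the same differences as leaving that array out. The ELOVL2 value of -0.16 is therefore the same estimate in both. Deviations of same-numbered arrays from their group means correlated at -0.021 and 0.046. The deviations of the 2 shControl arrays mirror each other, so these values cannot tell whether same-numbered arrays shared a batch. Against 159 genes (103 higher, 56 lower) as reported, 385 passed with dim genes left out (7406 genes, 8 of the 10 members), 340 of all probe sets tested singly, 426 with an intensity trend and robust variances, 88 with array weights, 13 with the constant of 16 removed (4 higher, 9 lower) and 517 at an adjusted p of 0.1. After quantile normalization 69 were higher and 53 lower. Leaving out 1 array gave 22 to 411 genes, 0 to 2 members and 0 to 7 pathway genes. The counts without shControl replicate 1 or 2 (411 and 242) take their spread from the shRB arrays alone. Of the 10 members, 5 passed with trend and robust variances, 1 with array weights, 0 with the constant removed and 4 at an adjusted p of 0.1. Of the pathway genes, 4 passed with dim genes left out, 6 with trend and robust variances and 0 with the constant removed. The cause was not tested. Signal near the floor limits FADS3, ELOVL2, ELOVL3, ELOVL4, ALOX12, GPAT3, ACSBG2, ACOT4 and ENPEP. It also limits the flanking genes RAB3IL1, EGF, MIR575, LINC00575, SEC31B, SYCP2L, GCM1, KLHL31 and, in shControl, CDC20. Other genes so limited are PPARA, ACSL4, ACSL5, LYZ and CD14, in shRB PTGS2 and ACSF2, and in shControl CYB5R2, THRSP and LTC4S. A missing call for such a gene does not show equal levels.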
